A study of Mus musculus with 14 samples.

Results

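The microRNAs (miRNAs) mmu-miR-223-3p, mmu-miR-142-3p and mmu-miR-142-5p, known from blood cells, were followed across mouse bone marrow and hypothalamus after gamma irradiation. They were chosen by name, and all 3 were among the 1247 miRNAs on the arrays. The data are 14 one-colour arrays, 10 of bone marrow and 4 of hypothalamus, from male C57BL/6 mice aged 6 to 8 weeks, taken 12 h after 8 or 0 Gy. RNA of 3 mice was pooled for an array, and no group has a second array. In bone marrow, 5 pretreatment arms were each arrayed at 8 Gy and at 0 Gy. Among the drug arms, CBLB502 was given at 0.2 mg/kg into the abdomen (i.p.) 0.5 h ahead of irradiation. Amifostine was given by the same route and at the same time at a dose of 10 mg/kg. Nilestriol was given into the stomach (i.g.) at 150 mg/kg, 48 h ahead. The vehicle arms were PBS i.p. and PBS i.g. Hypothalamus had the amifostine and PBS i.p. arms at both doses. CBLB502 is derived from bacterial flagellin and acts through Toll-like receptor 5, amifostine is a thiol that scavenges radicals, and nilestriol is an oestrogen.

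miRNAs are short RNAs cut from hairpin precursors, and the seed near their 5′ end pairs with target mRNAs and lowers their output. miR-223 is switched on in the myeloid lineage by transcription factors such as C/EBPα and PU.1. It is abundant in neutrophils, and in mice it restrains the expansion and activation of granulocytes, in part through the transcription factor Mef2c. miR-142 is made in nearly all blood lineages and is scarce in cells of other origin, and both strands of its hairpin accumulate as mature miRNAs.

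The mature sequences are shown first because the 2 strands of miR-142 come from 1 precursor but carry unlike seeds. The seed, bases 2 to 8, is in capitals, and the sequences are those of RefSeq on GRCm38.p6. RefSeq lists the miR-142 strands as mmu-miR-142a-3p and mmu-miR-142a-5p.
mmu-miR-223-3p: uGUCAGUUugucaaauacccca
mmu-miR-142-3p: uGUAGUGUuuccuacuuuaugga
mmu-miR-142-5p: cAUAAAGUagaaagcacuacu
No other mature mouse miRNA in the RefSeq table, which holds 1679 names, shared any of these seeds.

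Mir223 lies on chromosome X, chrX:96242817-96242926 on the plus strand, inside the long noncoding RNA gene F630028O10Rik (chrX:96239926-96243642). Mir142 lies on chromosome 11, chr11:87756864-87756927 on the plus strand. Both hairpins are shown because the arrays measured the strands apart, with the 5p strand as the first run of capitals and the 3p strand as the second run.
Mir223: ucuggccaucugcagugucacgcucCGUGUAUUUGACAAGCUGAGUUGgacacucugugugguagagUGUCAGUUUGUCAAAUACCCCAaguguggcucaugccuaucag
Mir142: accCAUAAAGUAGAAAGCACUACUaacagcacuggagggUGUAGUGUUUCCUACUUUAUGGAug
The arrays carried 2 probes for each of the 3 miRNAs, with 20 spots a probe. Every probe base paired with its mature miRNA, and the paired stretch began between base 1 and base 4. The longer probe of each miRNA is shown with all paired bases in capitals.
mmu-miR-223-3p probe: TGGGGTATTTGACAAACTGAC
mmu-miR-142-3p probe: TCCATAAAGTAGGAAACACTACA
mmu-miR-142-5p probe: AGTAGTGCTTTCTACTTTA
The other strand of Mir223, miR-223-5p, was not detected on any array, and its signal was at most 2.99 intensity units.

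The number of miRNAs detected was 332 to 403 on the bone marrow arrays and 478 to 582 on the hypothalamus arrays, and no spot was saturated. All 40 spots of each of the 3 miRNAs were well above background on every bone marrow array. The 20 spots of a probe varied little there, with a coefficient of variation of at most 7.10% for any of the 3. The bone marrow arrays lay on 2 slides, with PBS and CBLB502 on slide 1 and amifostine and nilestriol on slide 2. Markers were checked against the tissue labels, and the neuronal miR-124-3p was detected on 4 of 4 hypothalamus arrays and on 0 of 4 bone marrow arrays of the same arms. Levels below are log2 of the signal over the array's 75th percentile. Levels of different miRNAs are not compared, since each probe has its own brightness.

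miR-223-3p was higher at 8 Gy than at 0 Gy in bone marrow, in all 5 arms. Its signal at 8 Gy was 12413 with CBLB502, 14513 with amifostine, 21908 with nilestriol, 21757 with PBS i.p. and 26741 with PBS i.g. At 0 Gy it was 8147 with CBLB502, 11422 with amifostine, 17979 with nilestriol, 14354 with PBS i.p. and 18975 with PBS i.g. Within each arm the irradiated array was the brighter, while the ranges of these unscaled signals overlapped because the CBLB502 and amifostine arrays were low at both doses. On the scaled levels only the irradiated CBLB502 array (5.50) lay below the highest 0 Gy array (5.93, PBS i.p.). After scaling, the 8 minus 0 Gy difference was 0.69 with CBLB502, 0.75 with amifostine, 0.51 with nilestriol, 0.39 with PBS i.p. and 0.37 with PBS i.g. (SD 0.17, n = 5 arms). The order of the arms depends on the scaling: with scaling over all miRNAs, for example, PBS i.g. and CBLB502 were both at 0.50 and nilestriol at 0.47.

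**Figure D1:**
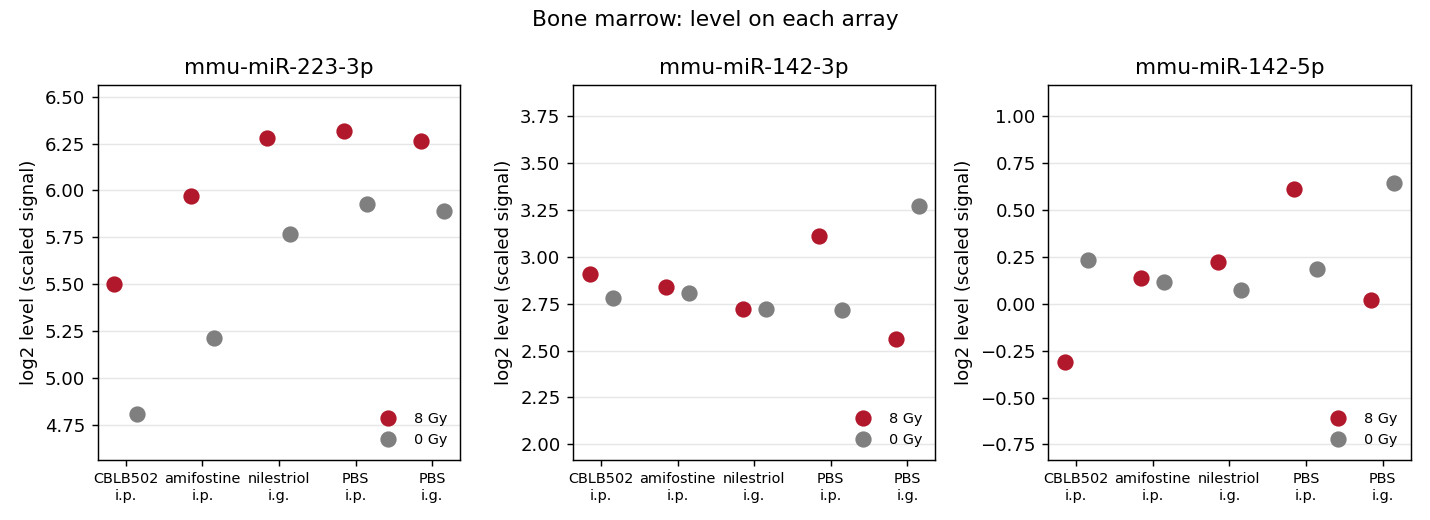
Level of each miRNA on each of the 10 bone marrow arrays (y axis, log2 scaled signal, 1 panel a miRNA), by arm (x axis), with 8 Gy in red and 0 Gy in grey. The red point of mmu-miR-223-3p lies above the grey in all 5 arms, while the points of both mmu-miR-142 strands cross, with the grey point on top in the PBS i.g. arm.

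Over the 5 arms, miR-223-3p rose by 0.54 ± 0.10 (log2 ± SE), which is 1.46-fold, with a 95% interval of 0.30 to 0.79 (limma with arm as a block, adjusted p = 0.0260). Its level averaged 6.07 ± 0.35 at 8 Gy and 5.52 ± 0.49 at 0 Gy (SD, n = 5 each). Of 371 miRNAs tested, 47 passed (12.7%), and the median difference of all tested was 0.09. Of the 371, 75 were higher at 8 Gy in all 5 arms (20.2%). In a bulk sample, more cells of a type and more RNA per cell cannot be told apart. Replicates here are arms that differ in pretreatment, so the p-values measure the spread of the dose effect between arms of 1 pool each.

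Leaving out 1 arm kept the rise between 0.49 and 0.59, but the adjusted p was 0.103 without PBS i.p., 0.0566 without PBS i.g., 0.0929 without amifostine and 0.0930 without CBLB502; it stayed at 0.0308 without nilestriol. The deposited value table gave a smaller mean of 0.39 (adjusted p = 0.194), with the amifostine arm at -0.25 and the other 4 arms at 0.30 to 0.66. In that table miR-223-3p takes 5 distinct values over the 10 bone marrow arrays, and 4 of the 5 unirradiated arrays share the value 13.59, so its differences between arms are coarse. Quantile normalization turned the amifostine arm to -0.35 as well, with a mean of 0.40 (adjusted p = 0.159). So the sign in the amifostine arm depends on the scaling, and that of the other arms did not under the 9 alternative settings. Of these settings, the detection filters left the arm differences unchanged and so could not alter a sign. Slide by slide, the rise was 0.50 in the arms of slide 1 (adjusted p = 0.0664) and 0.67 in those of slide 2 (adjusted p = 0.176). In the 2 PBS arms alone the difference was 0.38 ± 0.06 (adjusted p = 0.166), and 0 of 362 miRNAs passed there (0%), with 94 at an unadjusted p under 0.05.

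For the strands of miR-142, no dose difference was called. miR-142-3p had a signal at 8 Gy of 2056 with CBLB502, 1658 with amifostine, 1857 with nilestriol, 2361 with PBS i.p. and 2055 with PBS i.g. At 0 Gy it was 2001 with CBLB502, 2149 with amifostine, 2179 with nilestriol, 1550 with PBS i.p. and 3095 with PBS i.g. The lowest and the highest of these unscaled signals were both 0 Gy vehicle arrays. The scaled levels ran from 2.56 to 3.11 at 8 Gy and from 2.72 to 3.27 at 0 Gy, so the doses overlapped in part. The scaled 8 minus 0 Gy difference was 0.40 with PBS i.p. and -0.71 with PBS i.g., and between 0.00 and 0.12 in size in the 3 drug arms. Over 5 arms it averaged -0.03 ± 0.17 (log2 ± SE, 95% interval -0.44 to 0.38, adjusted p = 0.892).

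miR-142-5p had a signal at 8 Gy of 221 with CBLB502, 255 with amifostine, 329 with nilestriol, 416 with PBS i.p. and 353 with PBS i.g. At 0 Gy it was 342 with CBLB502, 334 with amifostine, 347 with nilestriol, 268 with PBS i.p. and 501 with PBS i.g. The irradiated CBLB502 array was the lowest of the 10 and the unirradiated PBS i.g. array the highest. The scaled difference was -0.55 with CBLB502, 0.02 with amifostine, 0.15 with nilestriol, 0.42 with PBS i.p. and -0.63 with PBS i.g., and it averaged -0.12 ± 0.18 (95% interval -0.56 to 0.33, adjusted p = 0.640). Neither strand passed. The dose differences of the 2 vehicle arms had opposite signs for both strands, but that of miR-142-3p in the PBS i.p. arm was 0 with quantile normalization and in the value table. The probes of a miRNA differed within an arm by at most 0.12 for miR-142-3p and 0.06 for miR-142-5p, which covers technical error only and not the spread between pools.

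**Figure D2:**
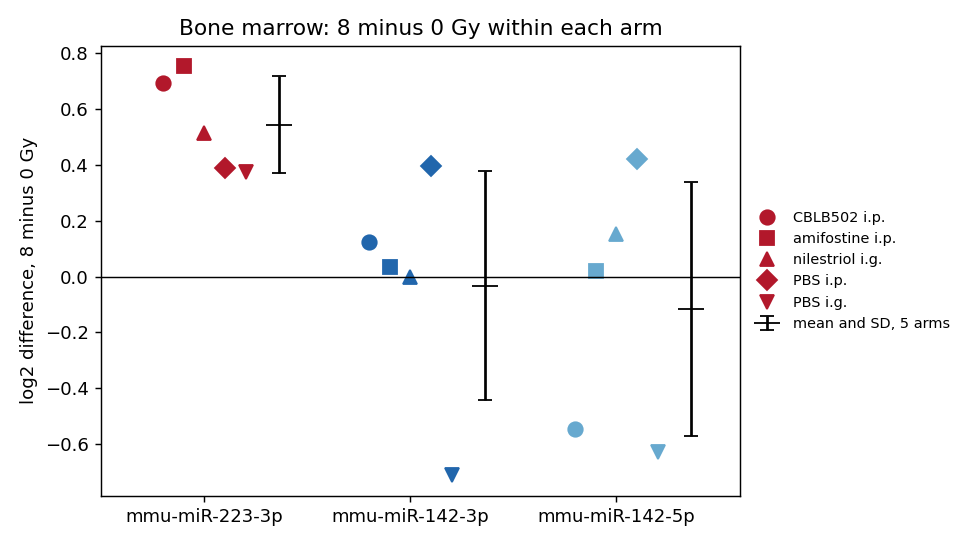
Difference between 8 and 0 Gy (y axis, log2) in each bone marrow arm (symbols) for the 3 miRNAs (x axis), with the mean and SD over the 5 arms in black. All 5 points of mmu-miR-223-3p lie above 0, from 0.37 to 0.75, while those of mmu-miR-142-3p run from -0.71 to 0.40 and those of mmu-miR-142-5p from -0.63 to 0.42.

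A ratio of 2 miRNAs on the same array does not depend on how the array was scaled to the others by a single factor. The ratio of miR-142-3p to miR-142-5p asked whether the 2 strands of the hairpin moved together. Only changes of it are read, since the probes differ in brightness. On 9 of the arrays its log2 lay between 2.50 and 2.70. On the irradiated CBLB502 array it was 3.22. The 8 minus 0 Gy change of the ratio was 0.67 with CBLB502, 0.02 with amifostine, -0.15 with nilestriol, -0.03 with PBS i.p. and -0.08 with PBS i.g. Its mean over the arms was 0.08 ± 0.33 (SD, n = 5), with p = 0.938 in an exact two-sided sign-flip permutation test, adjusted p = 0.938 over 3 ratios. The smallest p that 5 arms allow is 0.0625. In the CBLB502 arm miR-142-3p differed by 0.12 and miR-142-5p by -0.55, and with scaling over all miRNAs by -0.07 and -0.74, so the split of the step between the strands depends on the scaling. Under the 9 alternative settings the step was 0.47 to 0.67 and lay above the change in each of the other arms. Scaling by another single factor and the detection filters cannot change this ratio, and they gave 0.67 again.

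**Figure D3:**
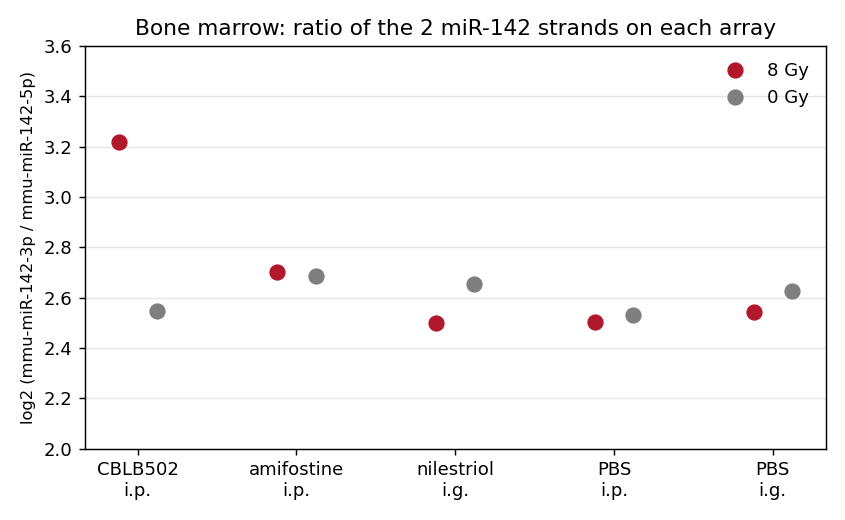
Log2 ratio of mmu-miR-142-3p to mmu-miR-142-5p (y axis) on each bone marrow array, by arm (x axis), with 8 Gy in red and 0 Gy in grey. The irradiated CBLB502 array stands at 3.22, and the other 9 lie between 2.50 and 2.70.

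A further pair of ratios were tested after the levels had been seen. miR-223-3p against miR-142-3p was higher at 8 Gy in 4 of 5 arms, by a mean of 0.58 ± 0.40 (SD), with an exact p of 0.125 (adjusted 0.188). miR-223-3p against miR-142-5p was higher in 4 of 5 arms, by 0.66 ± 0.51, with the same exact p of 0.125. In the PBS i.p. arm these ratios changed by -0.01 and -0.03, and all 3 miRNAs were higher there at 8 Gy by 0.39 to 0.42.

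Each drug was set against both PBS routes together, with dose as a covariate. All 10 bone marrow arrays gave 1 shared estimate of spread, those of slide 2 included, and a drug had 1 array a dose. The SE is therefore not the spread among the arrays of the drug and PBS alone. miR-223-3p was lower with CBLB502, with a level of 5.50 at 8 Gy and 4.81 at 0 Gy, against 6.32 and 6.26 in PBS marrow at 8 Gy and 5.93 and 5.89 in PBS marrow at 0 Gy. Both CBLB502 arrays were below all 4 PBS arrays, as they were for 66 of 371 miRNAs (17.8%). The difference was -0.95 ± 0.13 (log2 ± SE, 95% interval -1.24 to -0.65), or 1.93-fold lower (adjusted p = 0.0277), and 45 of 371 miRNAs passed (12.1%), 20 higher and 25 lower. By unadjusted p it ranked first of the 371. All CBLB502 and PBS arrays shared slide 1, and in those 6 arrays alone the difference was -0.93 (adjusted p = 0.0219). Against PBS i.p. alone it was -0.97 (adjusted p = 0.0886), with -0.82 at 8 Gy and -1.12 at 0 Gy. The call was lost without either CBLB502 array (-1.03, adjusted p = 0.250 without the irradiated one, and -0.83, adjusted p = 0.0513 without the unirradiated one). It was also lost without the PBS i.p. array at 8 Gy (adjusted p = 0.0591) or at 0 Gy (0.100), and without the PBS i.g. array at 0 Gy (0.0761). In the value table the difference was -0.81 (adjusted p = 0.0863). The sign was negative in all 21 alternatives, but several of them left the estimate unchanged at -0.95. Among these were the detection filters and leaving out either amifostine array, so they say nothing about the sign.

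For miR-142-3p the CBLB502 difference was not called, at -0.07 ± 0.21 (95% interval -0.57 to 0.43, adjusted p = 0.786). Its level with CBLB502 was 2.91 at 8 Gy and 2.78 at 0 Gy, inside the PBS range of 2.56 to 3.27. miR-142-5p was at -0.40 ± 0.23 (95% interval -0.95 to 0.14, adjusted p = 0.234). Its irradiated CBLB502 array, at -0.31, lay below all PBS arrays (0.02 to 0.65), and its unirradiated one, at 0.24, lay among them. Whether miR-223-3p differed from the strands of miR-142 in this respect was not tested.

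With amifostine, miR-223-3p had a level of 5.97 at 8 Gy and 5.22 at 0 Gy, which is 0.35 and 0.71 below the PBS i.p. array of the same dose. The difference from the 4 PBS arrays was -0.51 ± 0.13 (95% interval -0.81 to -0.21), which did not pass (adjusted p = 0.133). Amifostine marrow lay on slide 2 and PBS marrow on slide 1, so the drug cannot be told apart from the slide. miR-142-3p differed by -0.09 ± 0.21 and miR-142-5p by -0.24 ± 0.23. Nilestriol, also on slide 2, left miR-223-3p at 6.28 at 8 Gy and 5.77 at 0 Gy, next to 6.26 and 5.89 in PBS i.g. marrow. Its difference from the 4 PBS arrays was -0.07 ± 0.13 (95% interval -0.37 to 0.22, adjusted p = 0.697). That of miR-142-3p was -0.19 ± 0.21 and that of miR-142-5p -0.22 ± 0.23. Against the PBS i.g. array of the same dose the signs differed. miR-142-3p was at 0.16 at 8 Gy and -0.55 at 0 Gy, and miR-142-5p at 0.20 and -0.57. No miRNA passed for amifostine (0 of 371, 0%, with 76 at an unadjusted p under 0.05) or for nilestriol (0 of 371, 0%, with 95).

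**Figure D4:**
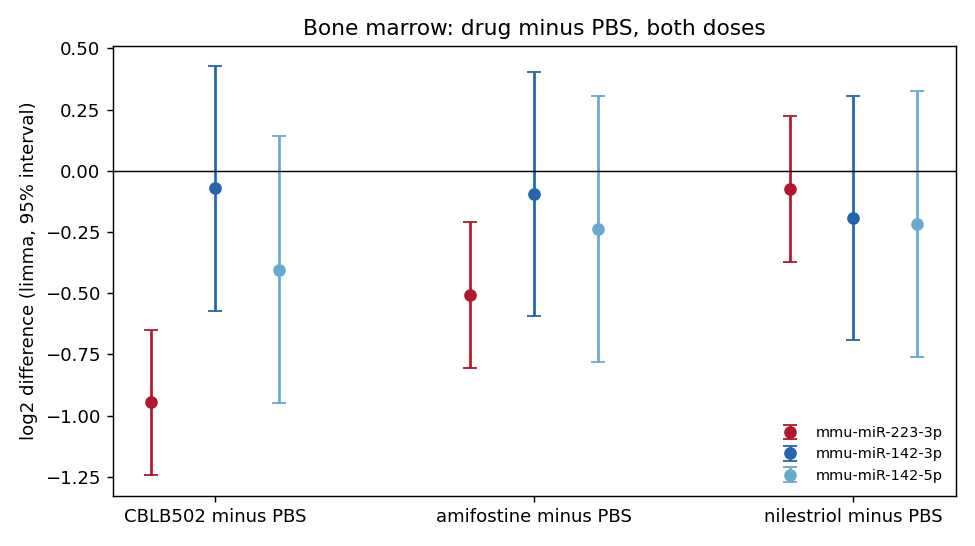
Drug minus PBS in bone marrow over both doses (y axis, log2, limma estimate with 95% interval) for each drug (x axis) and miRNA (colour). The interval of mmu-miR-223-3p lies below 0 with CBLB502 (-1.24 to -0.65) and with amifostine (-0.81 to -0.21, adjusted p = 0.133), and the 6 intervals of the mmu-miR-142 strands span 0.

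Averaged over both doses, the route of the vehicle made no detectable difference. PBS i.g. minus PBS i.p. was -0.05 ± 0.16 for miR-223-3p, 0.00 ± 0.27 for miR-142-3p and -0.07 ± 0.29 for miR-142-5p, and 0 of 371 miRNAs passed (0%, with 5 at an unadjusted p under 0.05). For the miR-142 strands these means are taken over dose differences whose signs differed between the 2 arms. At 0 Gy miR-142-3p was at 3.27 with PBS i.g. and 2.72 with PBS i.p., but at 8 Gy at 2.56 and 3.11. In the same order miR-142-5p was at 0.65 and 0.19 at 0 Gy, and at 0.02 and 0.61 at 8 Gy.

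The dose difference of miR-223-3p was above that with PBS by 0.31 ± 0.11 with CBLB502 (adjusted p = 0.490), by 0.37 ± 0.11 with amifostine (adjusted p = 0.274) and by 0.13 ± 0.11 with nilestriol (adjusted p = 0.437). None of the 3 passed, and no miRNA did in any of these tests (0% each, with 38, 61 and 85 of 371 at an unadjusted p under 0.05). Those fits take the spread from the PBS arrays, since a drug had 1 array a dose. The amifostine value became -0.85 under quantile normalization and -0.71 in the value table. For the miR-142 strands the same differences ran from -0.44 ± 0.54 (miR-142-5p with CBLB502) to 0.28 ± 0.56 (miR-142-3p with CBLB502).

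Other miRNAs of myeloid cells were read beside these. Of the 10 on the list, 9 were tested in bone marrow, and 2 rose at 8 Gy: miR-223-3p and miR-21a-5p, a miRNA induced in activated myeloid cells, which rose by 0.52 ± 0.10 (adjusted p = 0.0262). Over all 371 tested, 34 were called higher and 13 lower (12.7% in all). The list's median was 0.14, against 0.09 over all tested. With CBLB502, 4 of the 9 fell: miR-223-3p, and the miR-23a cluster members miR-23a-3p by 0.68 ± 0.13 (adjusted p = 0.0363), miR-27a-3p by 0.75 ± 0.15 (0.0444) and miR-24-3p by 0.68 ± 0.14 (0.0445). Over all 371 tested, 25 were called lower and 20 higher (12.1% in all). The median of the list there was -0.47, against 0.15 over all tested, and 8 of the 9 were below 0, against 159 of the 371. The 9 include the 3 miRNAs of this report. The miR-23a members share 1 cluster, so their calls need not be independent. In the arms present in both tissues, 5 of 8 list members tested were called higher in bone marrow than in hypothalamus. The miR-23a members were not among them. There miR-23a-3p differed by 0.50 ± 0.21 (adjusted p = 0.105), miR-27a-3p by 0.79 ± 0.27 (0.0600) and miR-24-3p by -0.68 ± 0.22 (0.0526). Other lists were mostly below 0 with CBLB502 as well. These were 6 of 8 lymphoid markers (median -0.26), 3 of 4 erythroid ones (-0.27) and 2 of 2 endothelial ones (-0.27). miR-21a-5p was at -0.11 ± 0.14 with CBLB502 (adjusted p = 0.526). None of the 9 passed for amifostine or nilestriol, which cannot be told apart from slide 2. Of the 9, miR-21a-3p had the same value of -0.03 ± 0.11 with both of these drugs, and 0.10 ± 0.11 with CBLB502. Each lay within 1 SE of 0, so its sign carries no weight in these counts. All 9 were below 0 with amifostine, against 169 of 371 over all tested, with a median of -0.24 against 0.05. With amifostine 6 of 8 lymphoid, 1 of 4 erythroid and 2 of 2 endothelial markers were below 0. All 9 were also below 0 with nilestriol, against 179 of 371, with a median of -0.19 against 0.02. This was not particular to the myeloid list. With nilestriol all 8 lymphoid markers (median -0.49), all 4 erythroid ones (-0.58) and both endothelial ones (-0.27) were below 0 too.

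Markers of other blood cells moved with dose too. All 4 erythroid markers measured rose at 8 Gy, among them miR-451a, a miRNA of maturing red cells, by 1.40 ± 0.17 (adjusted p = 0.00922). The summed scaled signal of the 4 was 182 to 304 at 8 Gy and 45.6 to 120 at 0 Gy. Of 8 lymphoid markers, miR-181a-5p and miR-181b-5p fell, by 0.67 ± 0.13 (adjusted p = 0.0284) and 1.02 ± 0.13 (adjusted p = 0.0124), and the sum of the 8 was 2.77 to 3.83 at 8 Gy and 2.78 to 5.49 at 0 Gy. The 2 endothelial markers summed to 0.554 to 1.25 at 8 Gy and 0.279 to 0.858 at 0 Gy. The part of these shifts in the rise of miR-223-3p was not tested. With CBLB502 the erythroid sum was 95.6 to 192, against 98.6 to 276 with PBS, and the lymphoid sum was 2.77 to 4.67, against 3.07 to 5.49, and no erythroid or lymphoid marker passed.

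The miRNAs whose bone marrow pattern was most like that of miR-223-3p were miR-340-3p (Pearson r = 0.99 over the 10 arrays), miR-10a-5p and miR-338-3p (both 0.95), miR-29c-3p (0.95) and miR-10b-5p (0.95). miR-340-3p rose at 8 Gy by 0.44 ± 0.10 (adjusted p = 0.0432) and fell with CBLB502 by 0.84 ± 0.13 (adjusted p = 0.0277). It was picked for its likeness on these same arrays, so changes close to those of miR-223-3p follow from the choice. They are no separate support. Most like miR-142-3p were miR-19a-3p (0.79), miR-6366 (0.71), miR-362-5p (0.68), miR-142-5p (0.65) and miR-378d (0.65). miR-362-5p lay at the floor (-5.31) on every array except the PBS arrays at 0 Gy. Those were barely above it, at -5.29 for PBS i.p. and -5.21 for PBS i.g. Most like miR-142-5p were miR-219-5p and miR-301a-3p (both 0.87), miR-29b-3p (0.85), miR-181c-5p (0.73) and miR-17-5p (0.72). Of these, miR-219-5p was dim, with levels from -5.25 to -4.07, not far from the floor. The correlation between miR-223-3p and miR-142-3p was 0.04, and that between miR-223-3p and miR-142-5p was 0.27. The arrays share arms, doses and the scaling, so these values are descriptions.

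All 3 miRNAs were far higher in bone marrow than in hypothalamus, on the 8 arrays of the amifostine and PBS i.p. arms. miR-223-3p had a signal of 11422 to 21757 in bone marrow, against 28.0 to 35.4 in hypothalamus. miR-142-3p had 1550 to 2361 in bone marrow, against 10.6 to 21.3 in hypothalamus. miR-142-5p had 255 to 416 in bone marrow, against -0.43 to 0.82 in hypothalamus, where 0 of its 160 spots were well above background. No array of one tissue overlapped with one of the other for any of the 3, as for 83 of 530 miRNAs that were higher in bone marrow on every array (15.7%).

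The tissue difference of miR-223-3p was 9.52 ± 0.29 (log2 ± SE), or 734-fold (adjusted p = 1.82e-05). For miR-142-3p, at least 50% of the spots were well above background on 2 of the 4 hypothalamus arrays, and its fitted difference was 7.45 ± 0.26 (adjusted p = 2.42e-05). With dim values taken at the limit below, miR-142-3p was at least 162-fold higher in bone marrow. miR-142-5p was at least 31.7-fold higher in bone marrow (fit 5.76, adjusted p = 1.14e-05). In that fit all 4 of its hypothalamus values were at the floor, so the p takes no spread from hypothalamus. These bounds take each hypothalamus array's dimmest probe that had at least 50% of its spots well above background, or the miRNA's own signal where that was higher. Of 530 miRNAs, 297 passed (56%), 84 higher in bone marrow and 213 lower, so a call was common here. The size depends on how dim values are handled: over the alternatives the difference ran from 7.81 to 11.21 for miR-223-3p, from 5.09 to 11.82 for miR-142-3p and from 3.03 to 11.69 for miR-142-5p. The lowest value of miR-142-5p came with normexp, which adds 50 units to every spot, and the bounds hold for the processed signal alone. On the same arrays miR-451a had a signal of 27897 to 74196 in bone marrow, against 773 to 1075 in hypothalamus, where it was the one erythroid marker of 4 that was detected. What blood in the tissue added to the hypothalamus values was not tested.

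**Figure D5:**
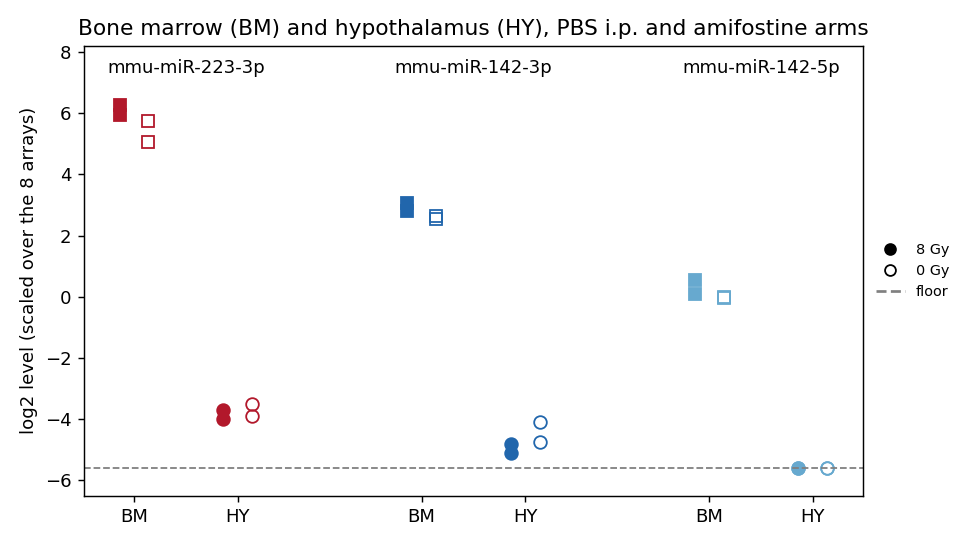
Level of each miRNA on the 8 arrays of the arms present in both tissues (y axis, log2 signal scaled over the 8 arrays), with bone marrow (BM, squares) left of hypothalamus (HY, circles), 8 Gy filled and 0 Gy open, and the floor dashed. The hypothalamus arrays of mmu-miR-142-5p all lie at the floor, and no hypothalamus point reaches a bone marrow point.

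In hypothalamus the dose and amifostine comparisons rest on signals near background. miR-223-3p had 38 of 40 spots well above background with amifostine at 8 Gy and 0 Gy, 30 with PBS at 8 Gy and 38 with PBS at 0 Gy. miR-142-3p had 21 with amifostine at 8 Gy and 28 at 0 Gy, and 1 with PBS at 8 Gy and 17 at 0 Gy. The 8 minus 0 Gy difference of miR-142-3p was -0.60 with amifostine and -0.66 with PBS, a mean of -0.63 ± 0.17 (95% interval -1.34 to 0.08, adjusted p = 1). That of miR-223-3p was -0.38 with amifostine and -0.13 with PBS, a mean of -0.26 ± 0.19 (adjusted p = 1). Amifostine minus PBS was 0.41 ± 0.17 for miR-142-3p and -0.01 ± 0.19 for miR-223-3p, where the drug again cannot be told apart from the slide. No miRNA passed for dose (0 of 544, 0%, with 0 at an unadjusted p under 0.05) or for amifostine (0 of 544, 0%, with 1).

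The dose difference in bone marrow was above that in hypothalamus by 0.85 ± 0.39 for miR-223-3p, 0.87 ± 0.33 for miR-142-3p and 0.35 ± 0.31 for miR-142-5p, the last with hypothalamus at the floor. None passed (adjusted p = 1 each), and neither did any of the 530 tested (0%, with 21 at an unadjusted p under 0.05).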

How the data were processed

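Spot intensity in the deposited scanner files came from Agilent Feature Extraction 10.7.1.1, which subtracted a fitted background surface, per the file headers. The value table that the authors deposited holds log2 values, and its scaling is not given in the sources used here. Signals were averaged over the non-outlier spots of each probe and then over probes. The scale was the 75th percentile, on each array, of the miRNAs detected throughout the fit (296 for bone marrow, 471 for hypothalamus, 277 for the 8 matched arrays). Values under a floor (log2 -5.31, -5.28 and -5.61) were raised to it. The vehicle-arm fit kept the bone marrow scaling. miRNAs detected on at least 50% of the arrays of a fit were tested with limma 3.58.1 under R 4.3.3 (tables were read with data.table, version 1.17.8), two-sided, with Benjamini-Hochberg adjustment over all tested at 0.05. Fits were tested on simulated data. The miRNAs and lists were chosen with earlier results of these data known. The text names the 3 miRNAs, miR-223-5p, the 5 most correlated with each, the myeloid miRNAs that passed and up to 3 others of each list. The number of arrays limits the precision. Alternatives covered scaling, background correction, the value table, low values, filters, probe summaries, slides, PBS routes and leaving out arrays.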

Additional observations from a re-analysis of the deposited data

Results flagged for a closer look

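Samples far from the rest were looked for in 14 groups of 4 or 5 values, and 3 stood out. Chance gives such a sample in about 5% of groups. The groups are not independent, since several hold the same arrays, so the number that stood out cannot be weighed against that share. At 0 Gy, miR-142-3p was at 3.27 (log2 level) on the PBS i.g. array, and the other 4 arms lay between 2.72 and 2.80. On the same array miR-142-5p was at 0.65, and the other 4 lay between 0.07 and 0.24. The change of the miR-142-3p to miR-142-5p ratio with dose was 0.67 in the CBLB502 arm, and the other 4 arms lay between -0.15 and 0.02. Each rests on 1 array, and no cause was tested.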

How the results depend on the processing

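Values of single miRNAs below are log2 differences, and counts are of miRNAs that passed. A change of sign by less than 1 SE of an uncalled value was not taken as a reversal, which applied to 30 values. The tissue difference was called for all 3 miRNAs under every alternative that gave a value; no cause of a change was tested. For bone marrow irradiation the count of 47 became 7 in the value table, 0 without a detection filter, 18 with the scanner totals, 10 in the arms of slide 1, 0 in those of slide 2, and 1 to 89 when an arm was left out. miR-223-3p was no longer called with quantile normalization (0.40), the value table (0.39), no filter (0.54), the scanner totals (0.52), slide 1 (0.50) or slide 2 (0.67), and ran from 0.49 to 0.59 with an arm left out. With an arm left out, miR-142-3p ran from -0.17 to 0.14 and miR-142-5p from -0.29 to 0.01, and miR-142-5p was 0.12 on slide 2.

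In the vehicle arms the count of 0 became 50 with normexp, 9 in the value table and 40 with a pseudocount, and miR-223-3p was called with normexp (0.41). With one vehicle arm left out, which allows no test, miR-223-3p was 0.32 to 0.39, miR-142-3p -0.77 to 0.40 and miR-142-5p -0.69 to 0.42. For CBLB502 the count of 45 became 83 with scaling over all miRNAs, 4 in the value table, 68 with a pseudocount, 0 without a filter, 12 with the scanner totals, 0 against PBS i.p. alone, 107 on slide 1, and 0 to 88 with an array left out. miR-223-3p was no longer called in the value table (-0.81), without a filter (-0.95) or against PBS i.p. alone (-0.97), and ran from -1.03 to -0.83 with an array left out.

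The count for amifostine became 4 with normexp and 13 with a pseudocount. That for nilestriol became 72 with scaling over all miRNAs, 8 with normexp, and 0 to 95 with an array left out, and its miR-223-3p value was 0.073 with quantile normalization and 0.08 in the value table. With normexp, the value table, a pseudocount, no filter and the scanner totals in turn, the counts for the drug by irradiation differences were 4, 8, 8, 41 and 9 for CBLB502, 3, 9, 3, 39 and 8 for amifostine, and 14, 12, 52, 27 and 17 for nilestriol. miR-223-3p reversed there for amifostine with quantile normalization (-0.85) and in the value table (-0.71), and for nilestriol with the scanner totals (-0.047); with an array left out the nilestriol value was -0.0063 to 0.15. For the vehicle route the value table gave a count of 2, miR-223-3p was 0.15 with quantile normalization and 0.16 in the value table, and with an array left out miR-142-3p ran from -0.42 to 0.43 and miR-142-5p from -0.41 to 0.31. For hypothalamus amifostine the value table gave a count of 9, miR-142-3p was -0.045 with normexp, and with a dose left out miR-223-3p ran from -0.10 to 0.25. The tissue count of 297 became 160 for miRNAs detected on all arrays. The tissue by irradiation count became 1 with normexp, 8 with a pseudocount, and 0 to 58 with an array left out. The miR-142 strand ratio changed by -0.27 with quantile normalization and by -0.21 in the value table, with neither called.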
